A study of Mus musculus with 12 samples.

Results

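Splenic CD8+ T cells given both an antibody against CD3 and IFN-4a were compared with cells given neither, to describe the total change in RNA when both signals arrive together. The comparison used 6 of the 12 microarrays of the series: the 3 arrays titled for anti-CD3 with IFN-4a and the 3 titled for PBS (phosphate-buffered saline, the mock treatment) without IFN-4a. All cells came from spleens of C57BL/6 mice, were enriched for CD8+ cells with an isolation kit that removes the other cell types, and were kept for 6 h before total RNA was taken. The other groups, 3 arrays with anti-CD3 alone and 3 with IFN-4a in PBS, carried the single signals and are used only to show where the combination differed from each of them. No genotype other than the strain, and no age, is given in the labels. The labels number the replicates but name no animal, culture or batch, so that the p-values reflect no more than the variation among these samples, and that variation may be technical.

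Anti-CD3 binds the signalling chains of the T cell receptor complex and starts the calcium, NF-kappaB and MAP kinase pathways that switch on cytokine, chemokine and growth genes. Type I interferon, to which the series title refers, acts through the receptor chains Ifnar1 and Ifnar2, the kinases Jak1 and Tyk2 and transcription factors that bind interferon response elements in promoters. In CD8+ T cells the receptor signal is known as the first signal of activation, costimulation as the second, and type I interferon or IL-12 can act as the third, which favours cytotoxic function and interferon-gamma production.

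Each deposited value was a log value, taken as log2, from which the median of that probe set over the 12 arrays had been subtracted. A value of 0 is therefore the gene's own middle and not an absence of RNA, and no level can be compared between genes. Differences are given in log2 units with the standard error (SE) from limma, and a gene was called when its adjusted p (Benjamini-Hochberg, over 22180 genes) was under 0.05. Arrays of the same group correlated at 0.734 or more over these centred values, and arrays of different groups at 0.538 or less. All 9 markers of CD8 T cells, Cd8a, Cd8b1, Cd3e, Cd3d, Cd3g, Cd2, Cd5, Thy1 and Cd27, stood at 8 or above before centring on the 6 highest arrays, as far as the decimal steps of the values show. The same held for 9 of 60 marker entries of other cells (NK cells, B cells, CD4 T cells, granulocytes, erythroid cells, platelets and other myeloid cells). Across all genes tested 37.1% passed this reading, and these are named bright genes here. A dimmer row could pass it by chance about 1 time in 32 where its values could be read. Rows whose lowest value on those 6 arrays was too close to 0 to read passed without a check. A gene passed when any of its rows did. Of those 60 entries, 7 were called higher and 5 lower with both signals. In bulk samples, fewer cells of a type and less RNA per cell cannot be told apart.

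With both signals 3124 genes were called higher than in PBS, 14.1% of those tested, and 4208 were called lower, 19.0%. Of the 8234 bright genes, 4727 were called in either direction. Most gene lists below hold mainly bright genes, so their counts are to be read beside that share. The increases were the larger changes: 620 genes rose and 265 fell at least 2-fold, 160 rose and 1 (St8sia6) fell at least 4-fold, and 64 rose at least 8-fold. The median change was 0.48 among the raised genes, -0.42 among the lowered genes and -0.02 over all genes. For 3988 genes (18.0%) the 3 arrays with both signals all lay above the 3 PBS arrays, and for 5336 genes (24.1%) they all lay below. After quantile normalization of the centred values 496 genes rose and 412 fell at least 2-fold. That refit gives every array the same distribution of centred values, so it can change the sizes of rises and falls by construction.

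The combination was also tested directly against each single signal. Against anti-CD3 alone, 447 genes were higher (2.02%) and 324 lower (1.46%), whereas against IFN-4a alone 2833 were higher (12.8%) and 3301 lower (14.9%). Both tests share the arrays with both signals. Without anti-CD3 replicate 2 or combined replicate 3 the 771 calls against anti-CD3 alone became 489 and 498. Of the 620 genes that rose at least 2-fold, 497 were above IFN-4a alone, 168 above anti-CD3 alone, 53 above both and 8 above neither. Of the 265 that fell at least 2-fold, 263 were below IFN-4a alone and 58 below anti-CD3 alone. The latter count became 131 after quantile normalization, 21 without combined replicate 1, 28 without anti-CD3 replicate 2 and 20 without anti-CD3 replicate 3. The interaction, which is the combined change minus the sum of both single changes, was called for 209 genes (0.942%), 66 with a combined change above the sum and 143 below it. It was called for 137 genes without IFN-4a replicate 2.

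The largest increases comprised chemokines and cytokines of activated CD8 T cells and antiviral genes. Ccl3, an inflammatory chemokine, stood at -3.94, -4.15 and -3.98 on the PBS arrays and at 2.96, 2.82 and 2.88 with both signals. It rose 120-fold (6.91 ± 0.22 SE, adjusted p = 1.7e-11), and the 3 arrays with anti-CD3 alone, at 2.88 to 2.89, lay inside the range of the combined arrays. Xcl1, the ligand of the XCR1 receptor of cross-presenting dendritic cells, rose by 5.55 and differed by -0.04 from anti-CD3 alone. Ccl4, a relative of Ccl3, rose by 4.87 and differed by 0.11 from anti-CD3 alone. Rgs16, a regulator that shortens G protein signalling, rose by 4.66.

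Cxcl10, a ligand of the Cxcr3 receptor that both interferons and NF-kappaB can induce, was raised by each signal. Its values were -4.36, -4.23 and -4.26 in PBS, -0.86, -0.77 and -1.06 with anti-CD3, 1.04, 1.05 and 0.77 with IFN-4a, and 1.08, 1.31 and 1.20 with both. The combined arrays were the highest of all 12, just above the IFN-4a arrays. Against PBS it rose by 5.49 (44.8-fold), against anti-CD3 alone by 2.09 (adjusted p = 3.2e-09), and the difference from IFN-4a alone was 0.25 (adjusted p = 0.066), a difference that was called without combined replicate 1 or anti-CD3 replicate 3. The interaction was -3.14 (adjusted p = 1.7e-08), the combined change being smaller than the sum of 3.39 and 5.24.

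The antiviral and interferon-inducible genes among the top 12 rose by 4.32 to 5.19 with IFN-4a alone. Ifit1, which binds viral RNA that lacks the host cap modification, stood at -2.98, -2.89 and -2.84 in PBS and at 1.88, 1.92 and 1.87 with both signals, a rise of 4.80. The combined arrays lay below the IFN-4a arrays at 2.29, 2.30 and 2.18, and this difference of -0.36 was called (adjusted p = 0.0014). Trim30c rose by 5.04 and differed by 0.02 from IFN-4a alone; Trim30 genes are near copies of each other, so its probes may also have read relatives. Oasl2 rose by 5.09, Usp18, which removes Isg15 from proteins and dampens interferon receptor signalling, by 4.61, and Oas2, which makes the activator of RNase L, by 4.56. Iigp1, an interferon-inducible GTPase that attacks parasite vacuoles, rose by 4.82 with both signals beside 4.46 with anti-CD3 and 4.32 with IFN-4a.

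**Figure D1:**
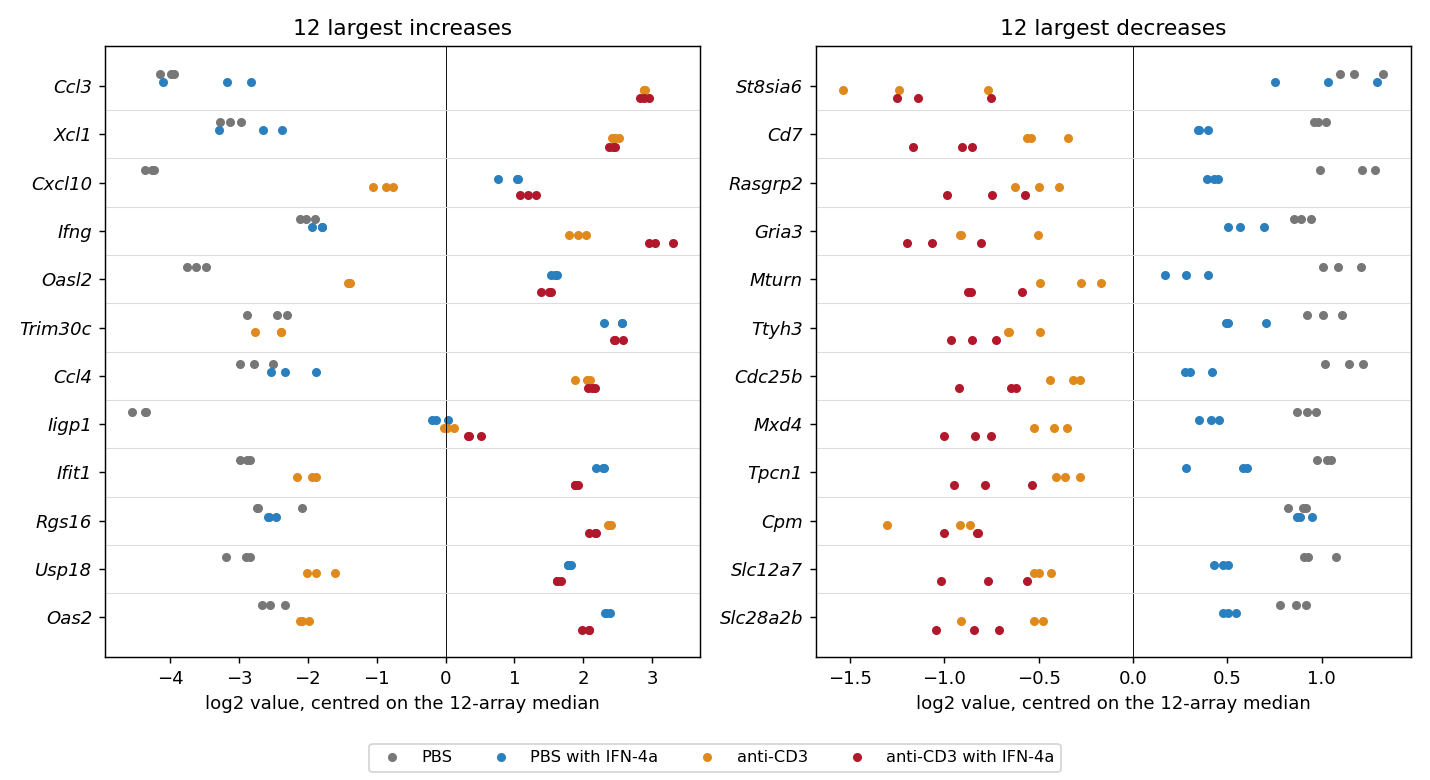
Each point is 1 array, at its log2 value centred on the gene's median over the 12 arrays, for the 12 genes with the largest increases (left) and the 12 with the largest decreases (right) with both signals. Ccl3 sits near 2.88 with anti-CD3 with or without IFN-4a, Ifit1 sits near 1.88 with both signals and near 2.29 with IFN-4a alone, and for Ifng the 3 combined arrays, at 2.95 to 3.30, lie above all others.

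To describe what the raised genes share in sequence, promoter windows of RefSeq (GRCm38.p6, 250 bases before to 50 after the start site) were matched to 16990 of the 22180 genes. The core letters GAAA, then any 2 bases, then GAAA again were found on either strand in 3.87% of all genes with a window. Among genes that rose at least 2-fold, were above anti-CD3 alone and were not above IFN-4a alone, 35 of 93 (37.6%) held them. Among those above IFN-4a alone and not above anti-CD3 alone, 10 of 356 (2.81%) did. The group above both single signals had 4 of 37 (10.8%), and the genes that fell at least 2-fold had 5 of 201 (2.49%). An AP-1 element, TGANTCA on either strand, was found in 8.42% of all genes with a window and in 12.9%, 6.74%, 10.8% and 7.96% of the same groups. The kappaB letters GGGA, any base, then TTTCC stood in the windows of 85 of the 16990 genes and in at most 1.08% of these groups. Only this narrow form was searched, so kappaB elements with other letters were not counted. A match describes letters in a window and does not show binding.

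Only matches to the searched letters are marked below, so kappaB elements of another form would stand in lower case. The sequence of Cxcl10 is shown because its promoter matched both the interferon core and the AP-1 letters. It runs 5′ to 3′ on the minus strand from 250 bases before the start site (chr5:92348890-92349139, GRCm38.p6), with the interferon core, whose first base is at -213, and the AP-1 letters, at -74, in capitals.
Cxcl10: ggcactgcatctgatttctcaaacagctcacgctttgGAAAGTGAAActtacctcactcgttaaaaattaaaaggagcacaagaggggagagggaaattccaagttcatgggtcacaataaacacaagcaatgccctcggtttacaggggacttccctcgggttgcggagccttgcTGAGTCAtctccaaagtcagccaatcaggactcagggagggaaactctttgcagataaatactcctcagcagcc

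Among genes named by rule, 16 rose at least 2-fold, above anti-CD3 alone and not above IFN-4a alone. Of these, 11 had a window and 5 held the interferon core: Cxcl10, Ifit1, H2-T23, Gzma and Isg15. Of the 12 genes with the largest increases, 8 had a window and 2 held it. The next 4 segments, of 30 bases each, show the core, in capitals, in some of these genes. Isg15, whose matches overlap, is not shown. Where the capitals read TTTC, the core lies on the other strand. Ifit1 holds 2 cores on chromosome 19, starting at -104 (chr19:34640775-34640804, plus strand) and -85 (chr19:34640794-34640823). H2-T23 holds 1 at -124 (chr17:36032806-36032835, minus strand), and Gzma holds 1 at -97 (chr13:113101059-113101088, minus strand).
Ifit1 at -104: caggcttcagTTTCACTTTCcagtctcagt
Ifit1 at -85: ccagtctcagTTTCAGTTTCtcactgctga
H2-T23: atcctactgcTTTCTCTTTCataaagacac
Gzma: cctattttagTTTCATTTTCcagctctaca

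Antiviral genes were raised as a group. Of 32 measured interferon-stimulated antiviral genes, 29 rose and the other 3 were not called, with a median change of 3.16 beside -0.02 for all genes; the median was 0.41 with anti-CD3 alone and 3.30 with IFN-4a alone. Against anti-CD3 alone 30 of the 32 were higher, and against IFN-4a alone 3 were higher (Ifitm3, Oas1g and Ifi27) and 14 lower. The GTPase gene Mx1 rose by 4.01. Isg15, a ubiquitin-like modifier, rose by 3.82 from -1.99, -2.37 and -1.74 to 1.76, 1.77 and 1.83. Rsad2, which makes a chain-terminating nucleotide, rose by 4.25, and Cmpk2, its neighbour in function, by 4.36. The 3 without a call were Ifit3 at 0.35, Apobec3 at 0.09 and Ifi27 at -0.18; Ifit3 and Ifit3b, which rose by 2.65, are near copies, and probe signal cannot be split with certainty between them. The interaction was called for 19 of the 32, 17 of them with a combined change below the sum.

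Ifitm3, a membrane protein that blocks entry of influenza viruses, was 1 of the 2 with a combined change above the sum. It stood at -0.81, -0.81 and -1.03 in PBS, at -0.73, -0.76 and -0.62 with anti-CD3, at 0.69, 0.67 and 0.62 with IFN-4a and at 2.14, 2.25 and 2.12 with both. The combined arrays lay above all others. It rose 8.29-fold against PBS (3.05 ± 0.07 SE), by 1.51 against IFN-4a alone, and by 0.18, not called, with anti-CD3 alone; its interaction was 1.33. The other, Oas1g, rose by 0.99, with single changes of -0.15, not called, and 0.43 and an interaction of 0.70 (adjusted p = 0.024).

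The 12 measured interferon-inducible GTPases, which coat the vacuoles of intracellular pathogens, all rose, with a median of 2.34. Their medians were 2.16 with anti-CD3 alone and 2.22 with IFN-4a alone. Gbp5 stood at -3.06, -2.93 and -2.78 in PBS and at 0.34, 0.35 and 0.40 with both, a rise of 3.29 beside single changes of 3.04 and 2.70. Gbp10 rose by 3.25 and Igtp by 2.58. For 11 of the 12 the interaction was called, each time below the sum.

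Genes of interferon signalling and its feedback moved both ways: 11 of 21 rose and 8 fell, with a median of 0.21. Among transcription factors that rose, Irf7, the amplifier of interferon induction, changed by 3.21, Stat2 by 2.12, Irf9 by 1.49 and Irf1 by 1.08. Irf8 rose by 2.14 and Cish, a feedback inhibitor of cytokine receptors, by 2.17. The 4 receptor chains and 2 of the 3 kinases fell, with changes of -1.14 for Ifngr2, -0.74 for Ifngr1, -0.62 for Ifnar1, -0.27 for Ifnar2, -0.58 for Jak1 and -0.43 for Tyk2, while the kinase gene Jak2 rose by 0.69. The factor Stat4 and the inhibitor Pias1 also fell, at -0.45 and -0.36, and the feedback genes Socs2 at -0.0020 and Socs3 at -0.09 were not called.

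Of 18 measured genes of MHC class I presentation, which displays peptides to CD8 T cells, 14 rose and the other 4 were not called (median 0.64). The largest change was that of the nonclassical gene H2-T24, at 3.86. Nlrc5, the transactivator of class I genes, rose by 1.60, from -1.47, -1.31 and -1.17 to 0.22, 0.29 and 0.35. Erap1, which trims peptides, and H2-T23, which encodes Qa-1, each rose by 1.16, Tapbp by 0.97 and the immunoproteasome subunits Psmb10, Psmb9 and Psmb8 by 0.92, 0.67 and 0.52. B2m at 0.08, H2-K1 at 0.13, H2-Q4 at 0.09 and Psme2 at 0.12 were not called. Probes for class I genes can read several near-identical copies.

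Cytotoxic genes rose in 11 of 18 cases and fell in 1 (Ctsc, at -0.17), with a median of 0.60. Gzmb, the main apoptosis-inducing granzyme, stood at -1.45, -1.96 and -1.77 in PBS, at 1.14, 0.52 and 0.29 with anti-CD3, at -0.31, -0.29 and -0.60 with IFN-4a, and at 3.31, 2.48 and 2.40 with both. The combined arrays lay above all other arrays, and no groups overlapped. It rose 22-fold against PBS (4.46 ± 0.24 SE), by 2.08 against anti-CD3 alone (adjusted p = 9e-05) and by 3.13 against IFN-4a alone (adjusted p = 1.8e-07). On the log2 scale its interaction of 0.75 was not called (adjusted p = 0.43).

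Gzma, another granzyme, rose by 2.09 with both signals, by 2.28 with IFN-4a alone and by 0.14, not called, with anti-CD3 alone. Prf1, the pore former, rose by 1.38, Tnfsf10, the death ligand TRAIL, by 1.49, Nkg7 by 1.17 and Fasl by 0.77. The protease inhibitors that protect killer cells from their own granzymes rose too, Serpinb6b by 1.73 and Serpinb9 by 1.61. Among 9 NK cell markers, 2 were higher, Gzma and Nkg7, which the cytotoxic list also holds, and 3 were lower, Fcgr3 at -0.77, Klrk1 at -0.42 and Klre1 at -0.22. Ncr1, which is specific to NK cells and related innate cells, differed by 0.04 and was not called.

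T cell cytokines rose in 12 of 17 cases, and 1 fell, Ltb at -0.29. Ifng stood at -1.89, -2.03 and -2.12 in PBS, at -1.94, -1.80 and -1.80 with IFN-4a, at 1.80, 1.92 and 2.04 with anti-CD3 and at 3.05, 2.95 and 3.30 with both. PBS and IFN-4a overlapped, and the combined arrays lay above all others. It rose 34.6-fold against PBS (5.11 ± 0.09 SE, adjusted p = 1e-13) and by 1.18 against anti-CD3 alone (adjusted p = 1.6e-06), and its interaction was 1.01 (adjusted p = 0.0011).

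Il3, a growth factor for myeloid cells, had a like order, from -0.78, -0.73 and -0.79 in PBS to 1.53, 1.64 and 1.86 with both, with an interaction of 0.89 (adjusted p = 0.0013). Tnf, in contrast, rose by 4.30 with both and by 4.31 with anti-CD3 alone. Lta rose by 2.70, Il2, the T cell growth factor, by 2.41, and Lif by 2.09. Of the 12 chemokines, 7 rose, and Ccl5 fell by 0.64. The other raised chemokines were Ccl9 at 2.25, Ccl1 at 0.74 and Cxcl9 at 0.53.

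Early activation genes rose in 24 of 27 cases, and the other 3, Tnfaip3, Batf and Nfkbia, were not called (median 1.68). The orphan nuclear receptors Nr4a2, Nr4a3 and Nr4a1, which track the strength of the receptor signal, rose by 4.12, 3.58 and 3.45, and differed from anti-CD3 alone by -0.08, 0.04 and 0.01. Egr2, a zinc finger factor induced through calcium signals, rose by 3.13. Il2ra, the high-affinity chain of the IL-2 receptor, rose by 3.93 with both signals and by 3.93 with anti-CD3 alone. Cd69, which holds lymphocytes in tissue by opposing S1pr1, rose by 2.32, with single changes of 2.02 and 1.16. Irf4 rose by 3.25, Myc, the driver of growth metabolism, by 2.73 and Tfrc, the transferrin receptor, by 2.59.

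Among 17 inhibitory receptors and ligands 12 rose and 4 fell. Cd160 rose by 3.43, Pdcd1, which encodes PD-1, by 2.37, Btla by 1.81 and Lag3 by 1.38. Cd274, the ligand of PD-1, stood at -2.76, -2.91 and -2.72 in PBS and at 0.48, 0.43 and 0.56 with both, a rise of 3.29. The anti-CD3 arrays, at 0.39 to 0.55, overlapped the combined arrays, while IFN-4a alone raised it by 2.25. Ctla4 fell by 0.96. Of 18 genes of the costimulatory TNF superfamily, 11 rose and 2 fell. Tnfsf14 (LIGHT) rose by 4.50, Tnfrsf9 (4-1BB) by 4.16 and Tnfsf8 (CD30 ligand) by 2.99. Tnfsf4, the OX40 ligand, rose by 1.57 and was above anti-CD3 alone by 0.41 (adjusted p = 0.014), a call lost without combined replicate 3 or anti-CD3 replicate 3.

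Of 17 transcription factors of effector and memory cells, 3 were above anti-CD3 alone: Tbx21, Eomes and Id2, the last without a call against PBS. Tbx21, which encodes T-bet, stood at -1.11, -1.11 and -1.54 in PBS, at 0.76, 0.93 and 0.77 with anti-CD3 and at 1.35, 1.38 and 1.30 with both. It rose by 2.60 against PBS and by 0.52 against anti-CD3 alone (adjusted p = 0.0095). Eomes, its paralogue, rose by 2.05 and by 0.46 in the same comparisons (adjusted p = 0.0072 for the latter). For both genes the 3 combined arrays lay above the 3 anti-CD3 arrays. Against PBS 7 of the factors rose and 6 fell, among the latter Rora at -0.70, Ets1 at -0.65 and Tox at -0.44. Of 16 cytokine receptors 6 rose and 2 fell; Il15ra rose by 2.38, and the IL-12 receptor chains Il12rb1 and Il12rb2 by 2.18 and 1.80.

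**Figure D2:**
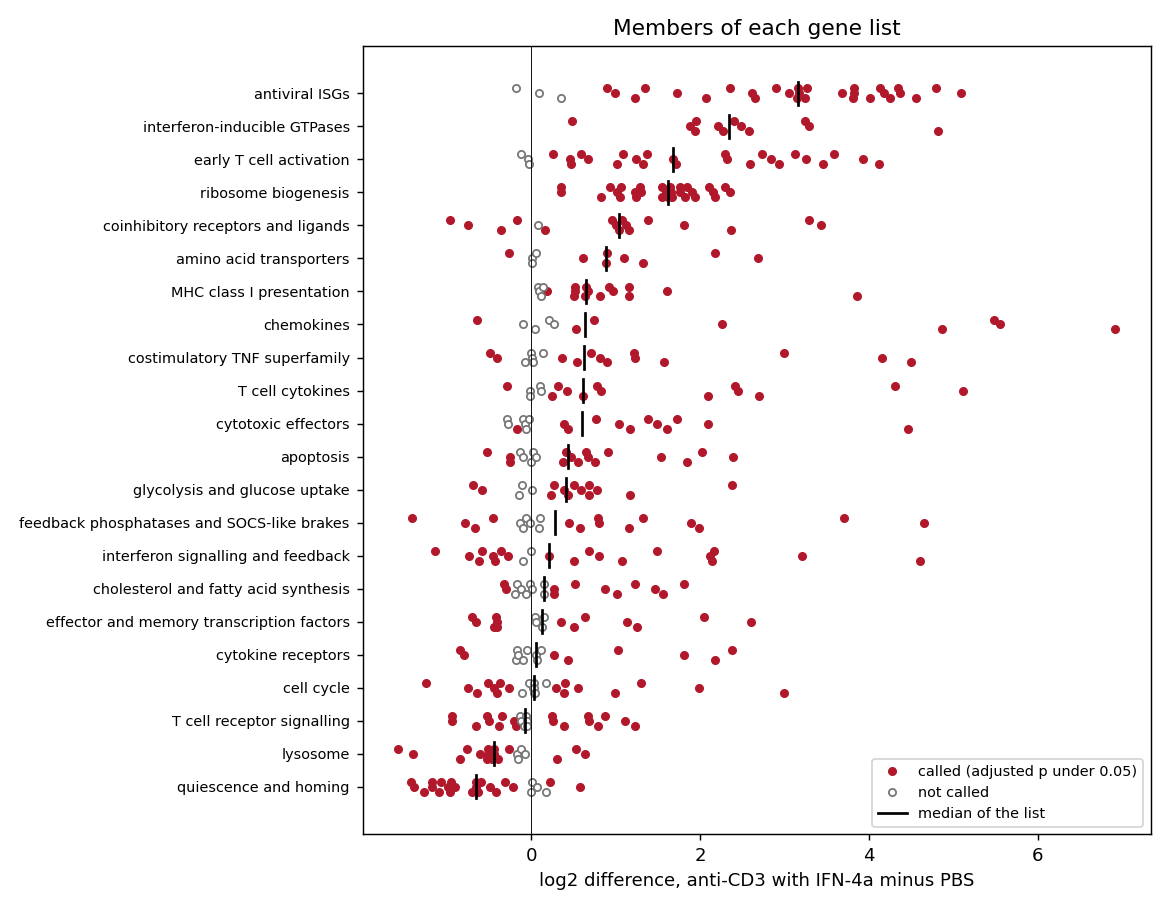
Each point is 1 gene at its log2 difference between anti-CD3 with IFN-4a and PBS, filled where called, with a bar at the median of each list. The medians run from 3.16 for antiviral genes and 2.34 for interferon-inducible GTPases to -0.44 for lysosomal genes and -0.66 for genes of quiescence and homing.

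Growth genes rose with both signals. All 29 measured genes of ribosome biogenesis were higher (median 1.61), among them Rrp1b at 2.35, the nucleolar GTPase gene Gnl3 at 2.30, the rRNA methyltransferase gene Nop2 at 2.18 and Polr1b, a subunit of RNA polymerase I, at 2.15. Their median was 1.71 with anti-CD3 alone and -0.25 with IFN-4a alone, where 19 of the 29 were lower than in PBS. Amino acid transporters rose in 7 of 11 cases, with Slc7a5, the leucine carrier, at 2.68 and its partner Slc3a2 at 1.10.

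Of 16 genes of glycolysis 11 rose and 2 fell; Hk2, the inducible hexokinase, rose by 2.38, while the glucose carrier Slc2a3 fell by 0.69. Of 19 genes of cholesterol and fatty acid synthesis 9 rose and 2 fell, with Cyp51 at 1.81 and Fasn at 1.56. Cell cycle genes moved both ways, 8 higher and 8 lower of 24. Cdkn1a, the inhibitor p21, rose by 2.99, and Ccnd2, a D-type cyclin, by 1.99. Cdkn1b, the inhibitor p27 of resting T cells, fell by 1.24, and Mki67 at -0.11 and Cdk1 at 0.02 were not called.

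Genes of quiescence and homing fell in 20 of 26 cases and rose in 2, Id3 and Ms4a4b (median -0.66). S1pr1, through which T cells leave lymphoid tissue, stood at 0.83, 0.76 and 0.79 in PBS and at -0.77, -0.57 and -0.54 with both, a change of -1.42. Itgb7, an integrin chain of gut homing, changed by -1.39 and lay below anti-CD3 alone by -0.61 and below IFN-4a alone by -0.77. The factors Klf2 and Lef1 changed by -0.99 and -0.96, the IL-7 receptor gene Il7r by -0.70 and Ccr7 by -0.66. Lysosomal genes fell in 13 of 20 cases and rose in 3, with Sgsh at -1.57, the protease gene Ctsd at -1.40 and Psap at -0.84.

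St8sia6, a sialyltransferase, had the largest decrease. It stood at 1.10, 1.17 and 1.33 in PBS and at -1.14, -1.25 and -0.75 with both, 4.75-fold lower (-2.25 ± 0.18 SE, adjusted p = 2.4e-07), and differed by 0.14 from anti-CD3 alone. Cd7, a surface protein of T cells, stood at 1.02, 0.96 and 0.98 in PBS, at 0.35, 0.35 and 0.40 with IFN-4a, at -0.56, -0.54 and -0.35 with anti-CD3 and at -1.16, -0.91 and -0.85 with both. Each group lay apart from the others, and the change of -1.96 went beyond both single changes of -1.47 and -0.62. Rasgrp2, an activator of the small GTPase Rap1, changed by -1.93, the glutamate receptor gene Gria3 by -1.92, Cdc25b, a mitotic phosphatase, by -1.86 and Mxd4, an antagonist of Myc, by -1.78. Genes of proximal receptor signalling were split, with 9 of 24 higher and 9 lower; Ubash3b, Ptpn6 and Zap70 rose by 1.22, 1.11 and 0.88, and Plcg1, Ubash3a and Cd3d changed by -0.94, -0.93 and -0.65. Of the 9 CD8 markers 3 rose, 4 fell and 2 were not called, with changes from -1.25 to 0.96. Among them Thy1 changed by -1.25, Cd8b1 by -0.27 and Cd8a by 0.20, and Cd3e was not called, at -0.05.

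The counts for brakes of signalling and genes of cell death stand beside 4727 of 8234 bright genes called in either direction. Of 20 phosphatases and similar brakes 10 rose and 4 fell, with Spry1 at 3.71, Rgs1 at 1.99 and Sla at 1.89, while Sla2 changed by -1.42. Of 20 genes of apoptosis 12 rose and 3 fell. Casp4, which senses bacterial lipopolysaccharide, rose by 2.39, Pml, the scaffold of nuclear bodies, by 2.03, Daxx, a partner of Pml, by 1.85 and Bcl2a1a, a protective relative of Bcl2 with near-identical copies, by 1.53.

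Some genes moved the same way with each signal and further with both. Called in the same direction by both single signals and by both direct tests, 46 genes were higher and 116 lower than with either signal, or 41 and 109 when receptor segments, small RNAs and predicted genes were left out. The count of 116 became 191 with array weights, 42 without combined replicate 1, 64 without combined replicate 3, 57 without anti-CD3 replicate 2 and 44 without anti-CD3 replicate 3. After Gzmb, the increases farthest beyond the larger single change were those of Atp10a, a phospholipid flippase, and Slc25a22, a mitochondrial glutamate carrier. Atp10a stood at -1.19, -0.99 and -0.90 in PBS, between -0.17 and 0.14 with either single signal and at 0.87, 0.92 and 0.87 with both. It rose by 1.91 beside single changes of 0.93 and 1.11. Slc25a22 rose by 1.77 beside 0.92 and 1.05.

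Furin, a protease that matures secreted proteins, stood at -0.35, -0.36 and -0.38 in PBS and at 0.71, 0.69 and 0.79 with both. It rose by 1.09 beside single changes of 0.31 and 0.40. The 6 arrays with a single signal lay between -0.09 and 0.11, apart from both other groups. Nampt, which makes the precursor of NAD, rose by 2.65 and Ube2l6, the conjugating enzyme for Isg15, by 2.51; the call of Ube2l6 above IFN-4a alone was lost without any 1 of the IFN-4a arrays or combined replicate 3. Ehd4 rose by 1.13. Among the decreases beyond both single changes were Mturn at -1.88, Sgsh at -1.57, the endosomal exchanger Slc9a9 at -1.45, Abca2 at -1.38, Sit1, an adaptor that dampens receptor signalling, at -1.36 and Sgms1, a sphingomyelin synthase, at -1.05. The call of Mturn below anti-CD3 alone was lost without combined replicate 1 or 2 or anti-CD3 replicate 2 or 3, and that of Sit1 after quantile normalization.

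A count of 1018 genes passed the threshold with both signals and with neither alone, 309 higher and 709 lower. These were small changes, with a median absolute size of 0.26 and 3 of at least 2-fold (Hspa1b, Gzmc and Muc13). In 841 of them both single changes had the sign of the combined change, and in 387 a single change had an adjusted p of 0.05 to 0.1. Passing in one comparison and missing in another does not show a difference, and only 54 of the 1018 were called against anti-CD3 alone and 281 against IFN-4a alone. Both direct tests were passed in the combined direction by 31 genes, 13 higher and 18 lower, with a median absolute change of 0.38. That count became 13 without anti-CD3 replicate 2, anti-CD3 replicate 3 or combined replicate 3, 17 without IFN-4a replicate 1 and 18 without combined replicate 1. The interaction was called for 3 of the 31: Hspa1b, Gzmc and Stk39. Bright genes made up 9 of the 31 and 365 of the 1018 (35.9%). Among all genes called with both signals against PBS that share was 64.5%.

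Hspa1b, an inducible chaperone of the HSP70 family, stood at 0.04, -0.10 and 0.02 in PBS, at -0.19, -0.04 and -0.10 with anti-CD3, at -0.25, -0.02 and 0.13 with IFN-4a and at 1.18, 1.45 and 0.69 with both. The other 9 arrays overlapped, and the 3 combined arrays lay above them. It rose 2.18-fold (1.12 ± 0.15 SE, adjusted p = 2.9e-05), with an interaction of 1.25 (adjusted p = 0.0083), and it kept its place among the 31 in all 16 refits. Hspa1a, a near-identical copy that shares sequence with it, rose by 0.49, with values of 0.39, 0.31 and 0.50 with both signals.

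Gzmc, a granzyme of strongly activated killer cells, stood at -0.14, -0.08 and -0.11 in PBS, at 0.08, 0.09 and 0.13 with anti-CD3, at -0.20, -0.26 and -0.15 with IFN-4a and at 1.27, 0.59 and 0.92 with both. The combined arrays lay above the other 9, and it rose 2.05-fold (1.04 ± 0.12 SE, adjusted p = 7.1e-06). The interaction was 0.92 (adjusted p = 0.016). Gzmd, Gzmf and Gzmg, neighbours of Gzmc in sequence, differed by -0.06, -0.28 and -0.02 and were not called; probes may not tell these copies apart.

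Stk39, a stress-responsive kinase that acts on ion cotransporters, stood at -0.09, -0.21 and -0.09 in PBS and at 0.58, 0.64 and 0.50 with both, a rise of 0.70, and the other 6 arrays lay between -0.22 and 0.13. Its call against both single signals was kept in all 16 refits, whereas its interaction of 0.50 was called in 6 of them. Gcnt4, a glycosyltransferase, rose by 0.40 and was likewise kept in all 16. Among decreases, Cyp2s1, a cytochrome P450, stood at 0.16, 0.07 and 0.47 in PBS and at -0.77, -0.86 and -0.53 with both, a change of -0.96, beside single changes of -0.17 and -0.25 that were not called. It was kept in 15 of 16 refits, and Dhcr7, the last enzyme of cholesterol synthesis, with a change of -0.30, in 16. Others depended more on single arrays: Apol9b at 0.83, Zfp97 at -0.95 and Casp6, an executioner caspase, at -0.65 were each kept in 3 of 16.

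**Figure D3:**
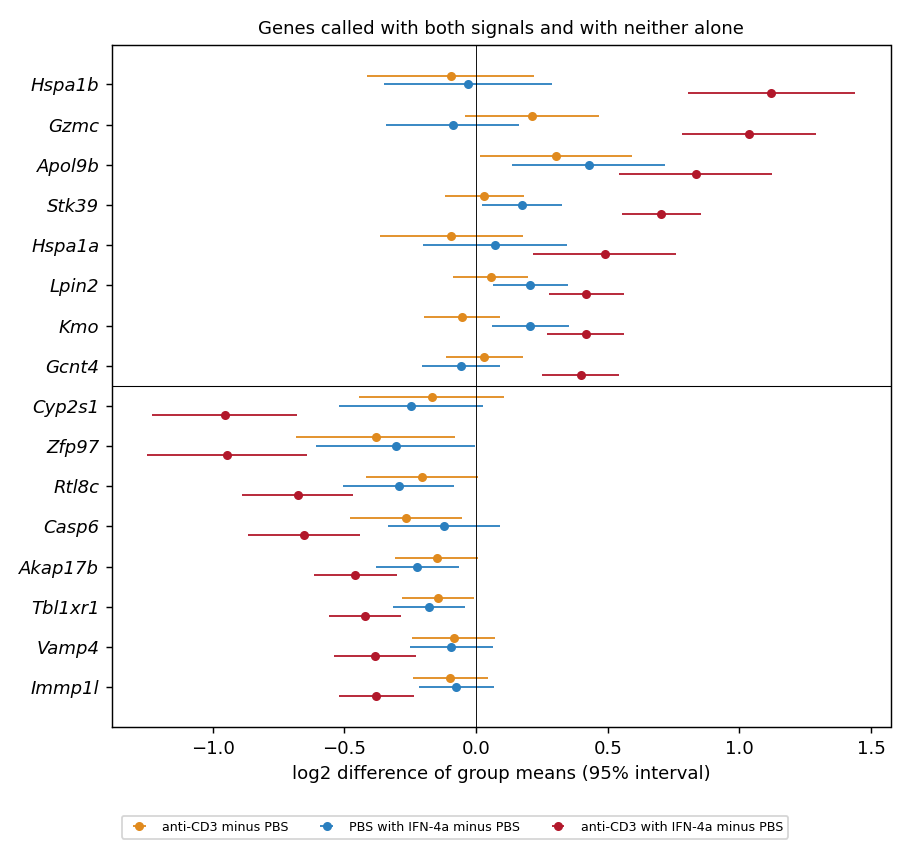
Points are log2 differences from PBS with 95% intervals for genes called with both signals, with neither alone, and against each single signal; the upper block holds increases and the lower block decreases. The combined changes run from 1.12 for Hspa1b to -0.96 for Cyp2s1, and the single changes stay between -0.38 (Zfp97, anti-CD3) and 0.43 (Apol9b, IFN-4a).

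The single signals moved 677 genes in opposite directions. Of these, 527 rose with anti-CD3 and fell with IFN-4a, and with both signals 451 of the 527 were higher than PBS, 72 were not called and 4 were lower (Acat1, Lyrm7, Sytl2 and Tmem184c). Their median change was 0.69 with anti-CD3, -0.31 with IFN-4a and 0.57 with both. The other 150 fell with anti-CD3 and rose with IFN-4a; with both, 42 were higher, 44 lower and 64 not called. Their medians were -0.37, 0.38 and -0.01. The 2 single comparisons share the PBS arrays, so that a high or low PBS array moves both single changes the same way.

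In 136 genes the opposite changes cancelled, in the sense that the combination was not called against PBS. Their combined changes lay between -0.23 and 0.25, with a median absolute size of 0.09, beside medians of 0.30 with anti-CD3 and 0.33 with IFN-4a. A missed threshold does not show that nothing changed, and 33 of the 136 had an unadjusted p under 0.05. The 95% interval of the combined change nevertheless lay within 0.5 log2 units of 0 for all 136, and the interaction was called for 2, Kif1b and Npepl1. In all 16 refits 45 of the 136 kept these calls, and the 10 named next were among them.

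Atp2b4, a plasma membrane calcium pump, stood at 0.01, 0.05 and -0.17 in PBS, at -1.11, -0.98 and -1.11 with anti-CD3, at 1.25, 1.15 and 1.07 with IFN-4a and at -0.14, -0.01 and 0.07 with both. The single signals moved it by -1.03 and 1.19, and the combined change was 0.01 ± 0.08 SE. The combined arrays overlapped the PBS arrays and lay apart from both single signals. Dpp4, the surface protease CD26, changed by -0.84 and 0.65 with the single signals and by -0.02 with both. Il18r1, a chain of the IL-18 receptor, changed by -0.73, 0.61 and -0.18, and Cd47, which protects cells from being engulfed, by -0.54, 0.48 and 0.06.

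Fam111a, a protease that restricts viruses, changed by -0.84 with anti-CD3, 0.996 with IFN-4a and 0.13 with both. The ubiquitin ligase gene Herc3 changed by -0.92, 0.58 and -0.13, and the mitochondrial phosphatase gene Ppm1k by -0.56, 0.56 and 0.02. Slfn10-ps, whose relatives in the Slfn family are near copies, changed by -0.52, 0.51 and 0.15. In the other direction, Hook1, an adaptor for microtubule transport, changed by 0.52, -0.55 and 0.09, and the exporter gene Abcc4 by 0.48, -0.53 and 0.15. For Abcc4 the difference between both signals and anti-CD3 alone was not called (adjusted p = 0.16). For the other 9 genes the combination differed from each single signal.

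Where a net change remained, it could follow either signal. Ifit2, an antiviral relative of Ifit1, stood at -0.71, -0.42 and -0.33 in PBS, at -1.18, -1.12 and -0.98 with anti-CD3, at 0.83, 0.82 and 0.92 with IFN-4a and at 0.41, 0.49 and 0.33 with both. The groups did not overlap, and the combined rise of 0.90 lay below the 1.35 of IFN-4a alone. Epsti1 changed by -0.93, 0.96 and 0.34, Oas1c by -0.61, 0.97 and 0.40, Grina by -0.62, 0.95 and 0.45, and the actin adaptor gene Pstpip1 by -0.57, 0.63 and 0.22, in the order anti-CD3, IFN-4a and both.

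Following anti-CD3, Ubash3b, a phosphatase that dampens receptor signalling, changed by 1.65 with anti-CD3, -1.05 with IFN-4a and 1.22 with both. Nat10, which acetylates rRNA, changed by 1.99, -0.69 and 1.85, and Ttc27 by 1.68, -0.61 and 1.51. For these 2 the difference between both signals and anti-CD3 alone was not called (adjusted p = 0.44 and 0.29). Nrp1, a coreceptor for semaphorins, changed by 1.23, -0.62 and 0.81, the mitochondrial iron carrier gene Slc25a37 by 0.78, -0.75 and 0.67, and Lsm7, of the U6 RNA ring, by 0.88, -0.66 and 0.64.

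**Figure D4:**
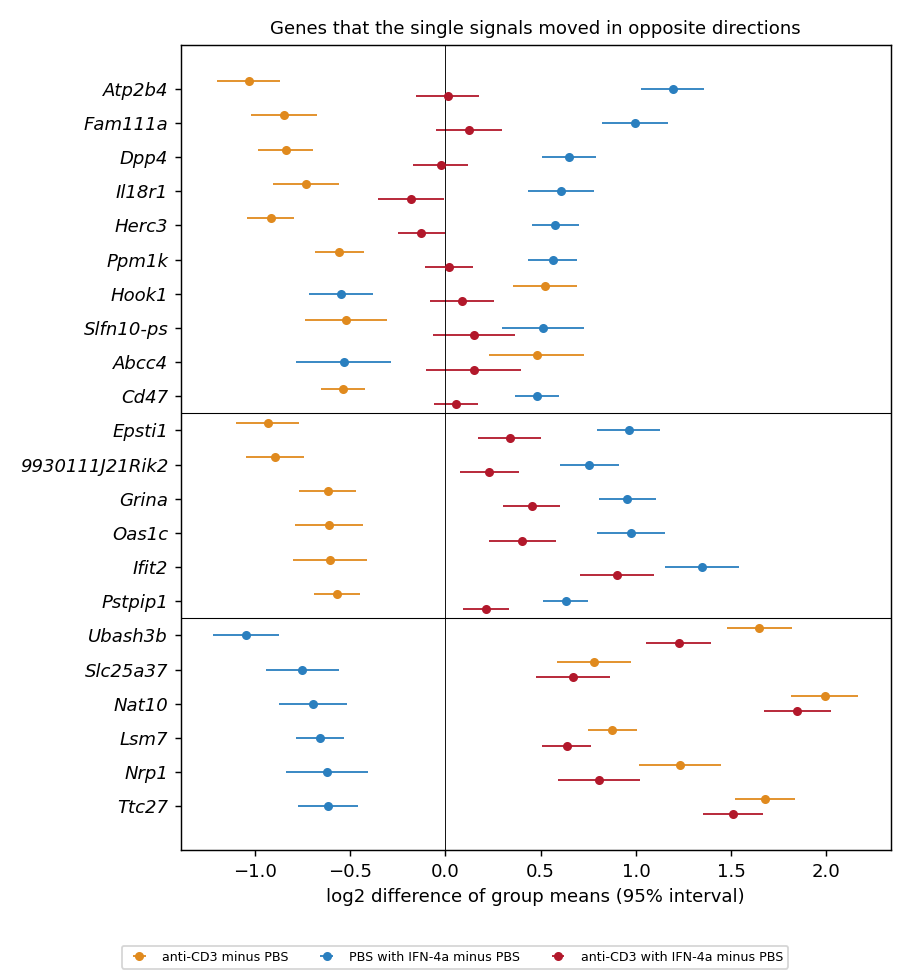
Points are log2 differences from PBS with 95% intervals for genes that the single signals moved in opposite directions; the upper block holds genes not called with both signals, the middle block genes whose combined change followed IFN-4a and the lower block genes that followed anti-CD3. In the upper block the combined changes lie between -0.18 (Il18r1) and 0.15 (Abcc4 and Slfn10-ps), while Nat10 in the lower block reaches 1.85.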

How the data were processed

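The authors deposited 1 table of log values, taken here as log2, for 12 biotin-labelled Affymetrix arrays, per the labels. The sources used here leave the log base, probe summarization, normalization and software unstated; with another base every fold would differ. Each row had been centred on its median over the arrays, and array medians were -0.0157 to 0.0165. The table held 33793 rows, of which 23521 had 1 gene symbol in the platform annotation, 1814 several and 8458 none. Rows of a gene were averaged (1082 genes with several rows), giving 22180 genes; 21994 were found by Entrez identifier in RefSeq GRCm38.p6 under the same symbol. Arrays give no read depth, and 3 per group limit the precision.

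Groups came from the sample titles. limma 3.58.1 in R 4.3.3 fitted a mean per group over all 12 arrays (8 residual and 5.18 prior degrees of freedom), with two-sided moderated tests and Benjamini-Hochberg adjustment within each comparison; the procedure was tested on simulated data. Replicate numbers were checked for pairing: 6 of 18 same-numbered pairs of arrays deviated together at a correlation over 0.1. Same-numbered pairs ran from -0.072 to 0.267 and other pairs from -0.251 to 0.185. Of the 12 arrays, 9 lay closest to their own number, so pairing by number is not settled. The main fit did not use the numbers, and a refit with a replicate block is given below. Members and lists were chosen with earlier results of these data known. The 29 lists held 560 entries, 503 of them measured.

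Genes were named by rule. The 12 largest called changes each way without overlap were taken, and the 4 largest of each pathway list. Of genes called only with both signals, the 8 largest each way that passed both direct tests were taken. From the rest of that class the 6 largest each way were added. Further genes were the 10 cancelling genes with the largest smaller single change and the 6 largest following each signal. The 8 each way farthest beyond both single changes and 13 check genes completed them. Predicted genes, small RNAs and receptor segments were passed over by the form of their names. The name 9930111J21Rik2 was not caught by this filter, so that gene was kept. Further list members are named with their values and were chosen after these were seen, as were Dhcr7 and the examples with the most stable calls. The 16 refits used quantile normalization of the centred values, the row with the highest mean, array weights, the replicate block, and each array left out.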

Additional observations from a re-analysis of the deposited data

Results flagged for a closer look

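For 35 of the genes named by rule the interaction was called. This means that the log2 change with IFN-4a differed between cells with and without anti-CD3. Whether the changes add up on a linear scale was not tested, and neither was an upper limit of the signal. In 25 of them the combined change was below the sum of the single changes. These were the interferon-inducible GTPases Iigp1 at -3.96, Gbp10 at -2.56, Gbp5 at -2.45 and Igtp at -2.34, and the chemokine Cxcl10 at -3.14. Among antiviral and interferon signalling genes they were Oasl2 at -2.31, Usp18 at -1.29, Ifit1 at -1.27, Irf7 at -1.11, Cmpk2 at -0.91 and Oas2 at -0.75. MHC class I genes were H2-T24 at -2.24, Nlrc5 at -1.01 and H2-T23 at -0.77. Surface molecules were Cd274 at -2.24, Il2ra at -0.97, Tnfsf8 at -0.87 and Cd69 at -0.85. The others were Ccnd2 at -1.25, Nampt at -1.10, Bcl6 at -0.92, Casp4 at -0.90, Sla at -0.84, Pml at -0.65 and Rgs1 at -0.41.

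In the other 10 the combined change was above the sum: Hspa1b at 1.25, Ifng at 1.01, Gzmc at 0.92, Il3 at 0.89, Slc25a37 at 0.64, Ubash3b at 0.62, Nat10 at 0.55, Stk39 at 0.50, Lsm7 at 0.42 and Furin at 0.38. Ifitm3 and Oas1g, named after their values were seen, had interactions of 1.33 and 0.70. The calls of Il2ra, Stk39 and Slc25a37 were kept in 6 of 16 refits, that of Lsm7 in 5, and those of Rgs1, Nat10 and Furin in 4. Quantile normalization alone ended the calls of Ifit1, Usp18, Oas2, Cmpk2, Irf7, H2-T23, Tnfsf8, Casp4, Pml and Cd69.

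Rows without a single gene symbol, which the comparisons above do not use, also carried changes: 1850 of 10272 were called with both signals, 761 higher and 1089 lower.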

How the results depend on the processing

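No call of a named gene against PBS was reversed in 2677 refitted values; 14 values, of 5 genes (Olfr331, Speer4c, Speer4d, Zfp873 and 9930111J21Rik2), lost their call. With a replicate block, 3162 genes were higher and 4260 lower than PBS, and 882 were called for both signals against anti-CD3 alone. In that refit 30 genes passed both direct tests alone with both signals and 139 cancelled. None of these counts moved by over 1.5 times, and Cxcl10 was called above IFN-4a alone. Of 12 arrays, 9 correlated best with their own number.

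Among the genes called against PBS, 42.6% were higher, and 47.1% after quantile normalization, which also changed the interaction from 209 to 123 calls and the genes passing both direct tests from 31 to 50. Array weights gave 1402 calls against anti-CD3 alone and 76 genes passing both direct tests. In bright genes alone 2772 were lower, 356 had an interaction and 367 passed only with both. At an adjusted p under 0.01, there were 1364 calls for IFN-4a alone, 409 for both against anti-CD3, 117 for the interaction, 7 for both direct tests, 75 cancelling and 323 opposite. Requiring at least 2-fold of every call, those of the single signals included, gave 620 higher and 265 lower, 703 for anti-CD3, 178 for IFN-4a, 117 for both against anti-CD3, 648 for both against IFN-4a, 47 interactions, 169 only with both, 2 by both direct tests, 1 cancelling and 2 opposite. With an array left out, calls ran from 1753 to 2976 for IFN-4a alone, 489 to 763 for both against anti-CD3, 137 to 207 for the interaction and 13 to 34 for both direct tests. A stricter threshold lowers the count of a comparison by construction; for the other shifts the cause was not tested.

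Gene list medians of pathway lists kept their sign in all 16 refits. Signal over background could not be read from centred values, which limits statements on weak genes.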
